A study of Homo sapiens with 6 samples.

Results

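The 10 genes described here are the EGF receptor family as listed for this line: the receptors EGFR, ERBB2 and ERBB3, the ligands HBEGF, AREG, EREG, TGFA and NRG1, and the receptor inhibitors ERRFI1 and LRIG1. They were found by symbol among the 24976 symbols of the deposited count table, with the counts of rows that share a symbol summed, and all 10 were present. The cells were LN229, an established adherent line from a human glioblastoma, sequenced as total RNA in 6 libraries. In 3 libraries GDH1 (glutamate dehydrogenase 1, gene GLUD1) had been knocked down with transfected small interfering RNA (siRNA) for 24 h. The other 3, named NC, are wild type by their genotype label, and an NC mixture was prepared beside the siRNA mixture, but whether it held a control siRNA is not spelled out in the labels. Neither the siRNA sequence nor the number of siRNAs used is given in the sources used here, and the results concern 1 cell line. The question is how transcripts of these genes differ when GDH1 is depleted.

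Receptors of this family are tyrosine kinases of the cell surface that pair up when a ligand binds, either with a copy of themselves or with a relative. ERBB2 has no known ligand of its own and ERBB3 has a weak kinase, so both act mainly in mixed pairs. The ligands are made as membrane-anchored precursors that ADAM proteases cut free, and the activated receptors signal through RAS to the kinases MEK and ERK, whose target genes include feedback inhibitors. In glioblastoma EGFR is often amplified or mutated.

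The promoters of EGFR, ERBB2 and LRIG1 are shown here because EGFR and LRIG1 differed between the groups in opposite directions and ERBB2 is the other receptor with an entry in the RefSeq promoter table (GRCh38.p14). Promoters of 8 of the 10 genes were searched. ERBB3 had no entry and NRG1 was left out of the search, so no promoter is shown for either. Each sequence runs from 250 bases before to 50 bases after an annotated start, 5′ to 3′ on the strand of the gene. Capitals mark the letters GGGCGG or their reverse complement, the core of a GC box, to which Sp1-type factors bind.
EGFR, chr7:55018767-55019066, plus strand: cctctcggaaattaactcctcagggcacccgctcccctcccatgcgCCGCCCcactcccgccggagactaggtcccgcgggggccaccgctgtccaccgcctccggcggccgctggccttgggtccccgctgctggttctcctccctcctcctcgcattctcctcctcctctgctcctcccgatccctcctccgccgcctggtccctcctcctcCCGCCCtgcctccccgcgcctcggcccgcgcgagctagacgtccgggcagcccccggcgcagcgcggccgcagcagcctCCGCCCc
ERBB2, chr17:39687844-39688143, plus strand: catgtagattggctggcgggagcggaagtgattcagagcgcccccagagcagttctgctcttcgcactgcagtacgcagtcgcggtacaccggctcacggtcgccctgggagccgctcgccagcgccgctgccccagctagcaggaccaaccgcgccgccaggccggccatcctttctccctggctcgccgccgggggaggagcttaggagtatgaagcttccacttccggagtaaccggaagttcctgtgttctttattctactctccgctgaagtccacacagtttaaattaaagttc
LRIG1, chr3:66501072-66501371, minus strand, the most upstream annotated start: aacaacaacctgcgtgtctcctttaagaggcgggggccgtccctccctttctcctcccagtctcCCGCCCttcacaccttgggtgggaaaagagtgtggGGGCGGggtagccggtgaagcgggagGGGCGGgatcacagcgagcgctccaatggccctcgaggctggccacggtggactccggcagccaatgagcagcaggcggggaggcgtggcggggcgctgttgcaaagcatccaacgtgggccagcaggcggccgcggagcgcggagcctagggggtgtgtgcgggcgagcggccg
The EGFR and LRIG1 windows each held 3 matches and the ERBB2 window held 0, where 45.0% of the 35116 promoters in the table held at least 1. All 3 windows lie at the upstream end of the annotated span of their gene. For ERBB2 no other start is listed, and whether these cells start ERBB2 transcripts there was not tested. Its 0 matches therefore describe that window and not every possible ERBB2 promoter. The motifs TGACTCA (AP-1, in 4.9% of promoters), TGACGTCA (CRE, 1.8%) and CACGTG (E-box, 7.3%), also searched on both strands, were not in these 3 windows, and the matches in them did not overlap. The table lists further starts for 2 of these genes: the second EGFR window (chr7:55109589-55109888) and the most downstream of 4 LRIG1 windows (chr3:66405718-66406017) each held 2 TGACTCA matches and 0 GGGCGG matches. The GC content of the 3 printed windows was 75.3% for EGFR, 69.3% for LRIG1 and 60.7% for ERBB2, against a median of 58.7% over the table. A match describes letters in a window and is not evidence of a bound factor.

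Library totals were 31201100 to 35619614 counts. The targeted gene GLUD1 was counted 3048, 2689 and 2813 times in the controls and 727, 877 and 933 times in the knockdown, both in replicate order as are all such series here, so the labels of all 6 libraries fit their GLUD1 level (log2 fold change -1.82, SE 0.10, adjusted p = 7.46e-07 in edgeR's quasi-likelihood test). After a filter on low counts 15638 genes were tested, and 4084 of them (26.1%) passed an adjusted p of 0.05, 2037 higher (13.0%) and 2047 lower (13.1%) in the knockdown. The glial and mesenchymal markers VIM, NES, CD44 and SOX2 had at least 2432 counts in every library. Of them SOX2, CD44 and VIM rose (0.78, 0.44 and 0.21 on the log2 scale) and NES did not pass (-0.19). The astrocyte marker GFAP had only 8 to 23 counts and CHI3L1 had 0. The glial markers S100B, FABP7 and OLIG2 fell (-1.13, -1.45 and -1.10 on the log2 scale). Markers of other cell types were mixed. Of the leukocyte and microglia list AIF1 was at 0 and PTPRC had 0 to 13 counts, but CD68, a lysosomal protein gene, had 423 to 1010 and rose (0.88). Of the endothelium list CDH5 was at 0 and VWF had 47 to 82 counts. Of the epithelium list CDH1 and KRT5 were at 0, KRT18 had 1113 to 1429 counts, and KRT8, with 132 to 264, fell (-0.71). Of the neuron list TUBB3 had 8015 to 12467 counts and SNAP25 466 to 729, and both fell (-0.35 and -0.39). The part of these markers in the results below was not tested. Libraries differed in their trend with the GC content of transcripts: with genes split by GC content into 5 bins, the lowest bin minus the highest had a median deviation of -0.12 to 0.14 on the log2 scale in controls and 0.06, 0.47 and 0.75 in knockdown replicates 1 to 3.

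Of the 10 genes, 9 passed the filter and were tested. NRG1 and EGFR rose, ERBB3 and LRIG1 fell, and ERBB2, HBEGF, EREG, TGFA and ERRFI1 did not pass. Thus 2 of 9 were called higher and 2 of 9 lower, beside 13.0% and 13.1% of all tested genes. For 6 of the 9 genes the 3 controls lay entirely on one side of the 3 knockdown libraries, beside 42.0% of all tested genes. These are bulk RNA measurements, in which fewer cells expressing a gene and less RNA per cell cannot be told apart. Levels below are in CPM (counts per 1000000 counts of the library, with edgeR's TMM scaling of library sizes), and differences are log2 fold changes with standard errors (SE).

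**Figure D1:**
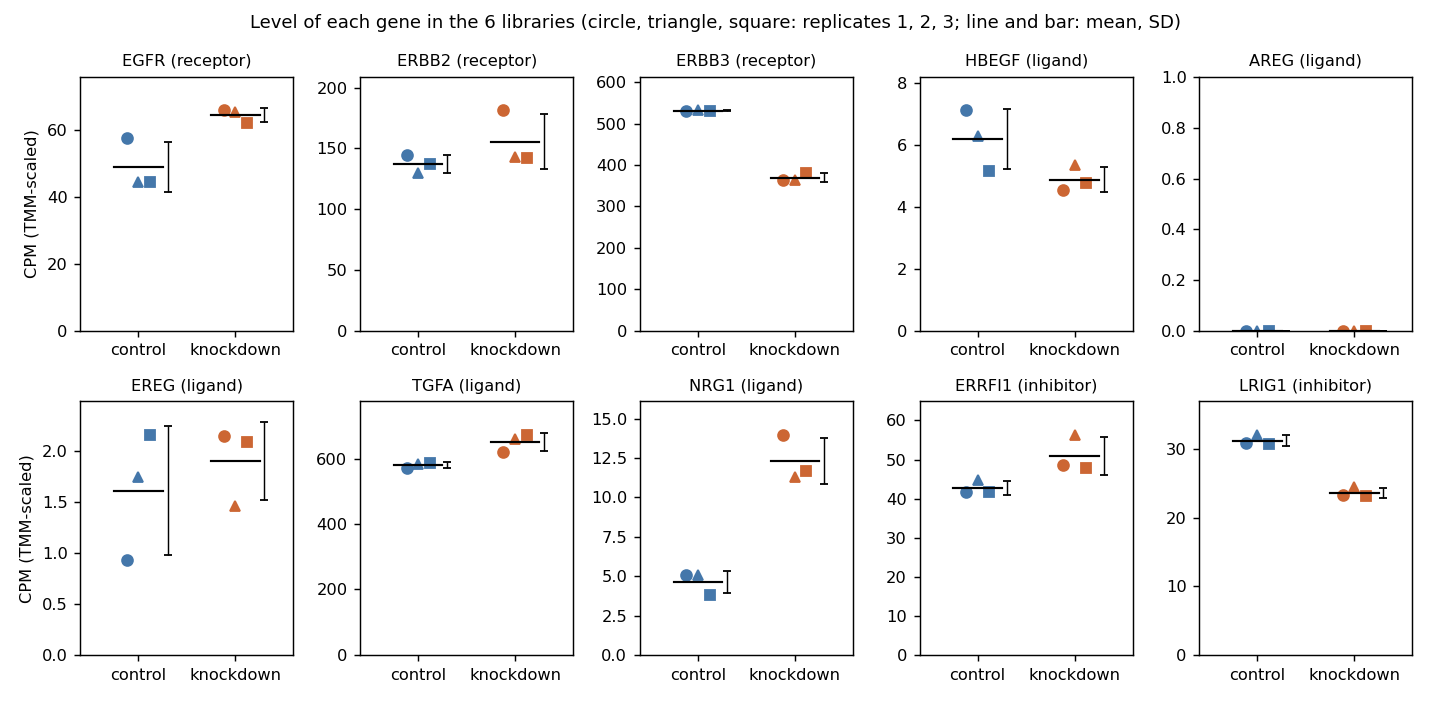
Level of each of the 10 genes in CPM (vertical axis, from 0) in the 3 control and 3 knockdown libraries, with symbols for replicates 1 to 3, a line for the mean and a bar for the SD. The groups are apart for EGFR, ERBB3, TGFA, NRG1, ERRFI1 and LRIG1, and AREG is at 0 in all 6 libraries.

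Among the receptors ERBB3, which pairs with ERBB2 and binds neuregulins, was the most abundant and the one that fell. Its gene lies at positions 56080108 to 56103505 of chromosome 12 (GRCh38.p14, as all positions here). ERBB3 had 18313, 16743 and 17405 counts in controls and 12663, 12154 and 13348 in the knockdown. In CPM the controls lay between 529.7 and 532.3 and the knockdown libraries between 362.5 and 381.6, so the controls were nearly level and all 3 knockdown libraries lay well below them. The mean went from 530.8 ± 1.30 to 369 ± 10.8 CPM (SD, n = 3 each), a log2 fold change of -0.52 (SE 0.06, 95% interval -0.65 to -0.39, adjusted p = 9.77e-05 in edgeR). The fold change stayed between -0.55 and -0.48 under all 16 other settings, all of them called. Some markers of myelinating glia, a lineage known to use ERBB3, were lower in the same libraries. MAG fell from 44.8 ± 3.60 CPM in controls to 11.9 ± 1.70 in the knockdown (log2 fold change -1.91, edgeR adjusted p = 1.26e-06) and MBP fell from 5.99 ± 0.373 CPM in controls to 3.22 ± 0.773 in the knockdown (log2 fold change -0.89, edgeR adjusted p = 0.00757), while MOG had 0 to 14 counts. Their part in the ERBB3 result was not tested.

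EGFR, the receptor for EGF and TGF-alpha on chromosome 7 (positions 55019017 to 55211628), went the other way. It had 1981, 1398 and 1460 counts in controls and 2294, 2191 and 2165 in the knockdown. In CPM these were 57.4, 44.4 and 44.4 against 65.8, 65.3 and 61.9, so that control replicate 1 stood between the other controls and the knockdown libraries, without overlap. EGFR rose from 48.8 ± 7.48 to 64.4 ± 2.14 CPM (log2 fold change 0.40, SE 0.10, 95% interval 0.17 to 0.63, adjusted p = 0.0152 in edgeR). The call depended on single libraries: leaving out control replicate 2 gave a fold change of 0.34 (adjusted p = 0.0692), control replicate 3 gave 0.34 (0.0855) and knockdown replicate 2 gave 0.39 (0.0619). Over all 16 other settings the fold change was 0.34 to 0.54 and the adjusted p 1.04e-07 to 0.0855.

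ERBB2, the shared partner of the other receptors, lies at positions 39688094 to 39728658 of chromosome 17. It had 4978, 4094 and 4505 counts in controls and 6327, 4804 and 4960 in the knockdown, or 144, 130.2 and 137 against 182, 143 and 142 CPM. Knockdown replicate 1 stood above all other libraries, and the other knockdown libraries lay within the range of the controls. The means were 137 ± 7.03 and 156 ± 22.5 CPM, and the difference did not pass (log2 fold change 0.18, SE 0.10, 95% interval -0.03 to 0.39, adjusted p = 0.191). The principal ERBB2 transcript has 60.3% GC, in the GC bin whose median fold change was -0.26, and once the trends with GC content and length were removed per library ERBB2 was at 0.39 (SE 0.04, adjusted p = 1.23e-08 with limma, 3.54e-10 to 0.501 over all 16 other settings). Without knockdown replicate 1 it was at 0.06 (adjusted p = 0.501). The annotated span of MIEN1 overlaps ERBB2, and without a stated strand setting reads of the overlap cannot be told apart. MIEN1 had 696 to 888 counts and was lower in every knockdown library than in every control.

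The proportions within the receptor group did not overlap between the groups. Per kilobase of principal transcript, ERBB3 made up 70.5, 73.1 and 72.1% of the summed receptor level in controls and 56.8, 61.6 and 63.2% in the knockdown, with no overlap. The share of ERBB2 was 24.2 ± 0.847% in controls and 33.1 ± 3.41% in the knockdown (SD, n = 3 each), and that of EGFR was 3.97 ± 0.539% and 6.36 ± 0.289%. With counts not divided by length the share of EGFR differed by 4.14 percentage points instead of 2.39. Such shares are ratios within a library and do not depend on scaling between libraries. They are parts of 1 sum, so a smaller ERBB3 share means a larger share for ERBB2 and EGFR together. The 3 shares are thus not separate results. In CPM the ERBB2 groups overlapped and the difference did not pass (log2 fold change 0.18, adjusted p = 0.191 in edgeR), while EGFR passed (0.40). A two-sided exact permutation test over libraries gave p = 0.1 for each of the 3 shares, the smallest that 3 against 3 allows. With 1 library left out the difference for ERBB3 was -12.7 to -9.45 percentage points.

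**Figure D2:**
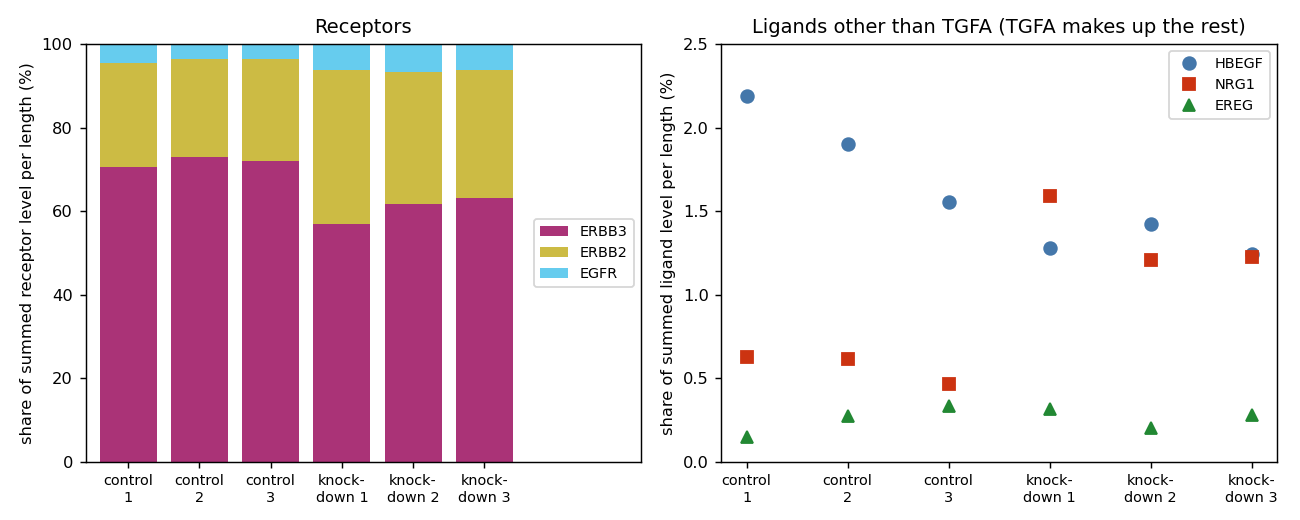
Left, share of each receptor in the summed receptor level per kilobase in each library, in percent. Right, the same among the 5 listed ligands for HBEGF, NRG1 and EREG, with TGFA making up the rest. ERBB3 takes 70.5 to 73.1% in controls and 56.8 to 63.2% in the knockdown libraries, and NRG1 takes 0.463 to 0.627% of the ligand level in controls and 1.21 to 1.59% in the knockdown.

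Of the ligands NRG1, which encodes neuregulin 1 and binds ERBB3 and ERBB4, showed the largest fold change of the 10 genes. It spans positions 31639245 to 32774046 of chromosome 8. NRG1 had 175, 159 and 126 counts in controls and 488, 378 and 408 in the knockdown, so the lowest knockdown library held more counts than the highest control by a wide gap. It rose from 4.65 ± 0.709 to 12.3 ± 1.47 CPM (fold change 2.64, log2 fold change 1.40, SE 0.16, 95% interval 1.06 to 1.74, adjusted p = 8.62e-05 in edgeR). All 16 other settings called it, at 1.29 to 1.47. NRG1 has many isoforms that differ in their start and their EGF-like domain, and gene counts do not tell them apart.

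TGFA, which encodes TGF-alpha, a ligand of EGFR, was the most abundant of the 10 genes (chromosome 2, positions 70447284 to 70553826). It had 19689, 18305 and 19316 counts in controls and 21563, 22133 and 23554 in the knockdown. All 3 knockdown libraries (618.6 to 673 CPM) lay above all 3 controls (570.4 to 588 CPM). The means were 580.1 ± 8.92 and 651 ± 28.6 CPM, a log2 fold change of 0.17 (SE 0.06, 95% interval 0.03 to 0.30) that did not pass over all genes (adjusted p = 0.0652). It passed without knockdown replicate 1 (0.00750) and when GC and length trends were removed (0.0156), at fold changes of 0.21 and 0.10, and over all 16 other settings the adjusted p was 0.00750 to 0.221.

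The remaining ligands were scarce. HBEGF, the heparin-binding ligand of EGFR and ERBB4 on chromosome 5 (positions 140332843 to 140346603), had 246, 198 and 170 counts in controls and 158, 179 and 167 in the knockdown. Control replicate 3 overlapped the knockdown libraries, and the difference from 6.20 ± 0.980 to 4.88 ± 0.414 CPM did not pass (log2 fold change -0.34, SE 0.17, 95% interval -0.72 to 0.03, adjusted p = 0.157). EREG, the gene of epiregulin, another ligand of EGFR and ERBB4 (chromosome 4, positions 74365145 to 74388749), had 32, 55 and 71 counts in controls and 75, 49 and 73 in the knockdown. Its groups overlapped (log2 fold change 0.24, SE 0.33, 95% interval -0.48 to 0.96, adjusted p = 0.634), and without control replicate 1, the lowest library, it was at -0.037. AREG, the gene of amphiregulin, an EGFR ligand encoded next to EREG on chromosome 4 (positions 74445136 to 74455005), had 0 counts in every library. A count of 0 allows a level of up to 0.0842 to 0.0962 CPM per library (3 counts, counting error only).

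Per kilobase the summed level of the 5 listed ligands was nearly all TGFA, with 97.3 ± 0.316% in controls and 97.1 ± 0.234% in the knockdown (SD, n = 3 each). Other ligands of the family were not in this sum, among them NRG2 (8.45 CPM in controls), EGF (6.73) and BTC (2.05). The TGFA groups overlapped, and the difference of -0.22 percentage points had the other sign with merged exon lengths (0.052, a setting chosen after seeing the data) and was -0.75 with counts not divided by length. NRG1 took 0.568 ± 0.0911% in controls and 1.34 ± 0.218% in the knockdown, and HBEGF took 1.88 ± 0.319% and 1.32 ± 0.0919%. For both the groups did not overlap (p = 0.1 in the same exact permutation test). In CPM, however, the HBEGF groups overlapped and the difference did not pass (adjusted p = 0.157 in edgeR). Each share also depends on TGFA, which makes up nearly all of the sum. With counts not divided by length the HBEGF share differed by -0.319 percentage points instead of -0.565, and the NRG1 share by 1.06 instead of 0.773. With merged exon lengths the differences were -0.624 for HBEGF and 0.556 for NRG1.

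Of the receptor inhibitors LRIG1 fell and ERRFI1 did not pass. LRIG1, a membrane protein that promotes the degradation of EGF family receptors, lies at positions 66378797 to 66501121 of chromosome 3. It had 1069, 1012 and 1010 counts in controls and 815, 822 and 811 in the knockdown, a narrow spread within each group and no overlap between them. LRIG1 fell from 31.3 ± 0.770 CPM in controls to 23.7 ± 0.718 in the knockdown (log2 fold change -0.40, SE 0.09, 95% interval -0.59 to -0.21, adjusted p = 0.00570 in edgeR), and all 16 other settings called it, at -0.53 to -0.29. The table holds LRIG1 in 2 rows. The larger row had 782, 732 and 687 counts against 556, 510 and 522 (log2 fold change -0.53, SE 0.10, adjusted p = 0.00487), and the smaller had 287, 280 and 323 against 259, 312 and 289 (-0.11, SE 0.14, adjusted p = 0.624). The larger row thus passed and the smaller did not, and the difference between them was not tested. The smaller row took 26.8 to 38.0% of the LRIG1 counts of a library, and no source used here gives how reads were shared between the rows. SLC25A26, whose annotated span overlaps LRIG1, had 586, 520 and 657 counts in controls and 492, 477 and 426 in the knockdown. It was thus lower in every knockdown library than in every control, as LRIG1 was. Without a stated strand setting reads of the overlap cannot be told apart, and their part in the LRIG1 result was not tested.

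ERRFI1, also called MIG6, encodes a cytoplasmic protein that binds the kinase domain of EGFR and blocks it (chromosome 1, positions 8011727 to 8026309). It had 1439, 1407 and 1372 counts in controls and 1693, 1891 and 1669 in the knockdown, with all knockdown libraries above all controls. The means were 42.7 ± 1.74 and 50.9 ± 4.79 CPM, and the difference lay just outside the threshold (log2 fold change 0.25, SE 0.09, 95% interval 0.06 to 0.45, adjusted p = 0.0568). It passed with DESeq2 (0.0455), the replicate number as a block (0.0344), without knockdown replicate 1 (0.0144) and without knockdown replicate 3 (0.0308), and over all 16 other settings the adjusted p was 0.0144 to 0.269. The number of genes called higher was therefore 4 without knockdown replicate 1, where TGFA and ERRFI1 joined NRG1 and EGFR. It was 1, NRG1 alone, when control replicate 2 or 3, or knockdown replicate 2, was left out. The number called lower was 2 with any 1 library left out.

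**Figure D3:**
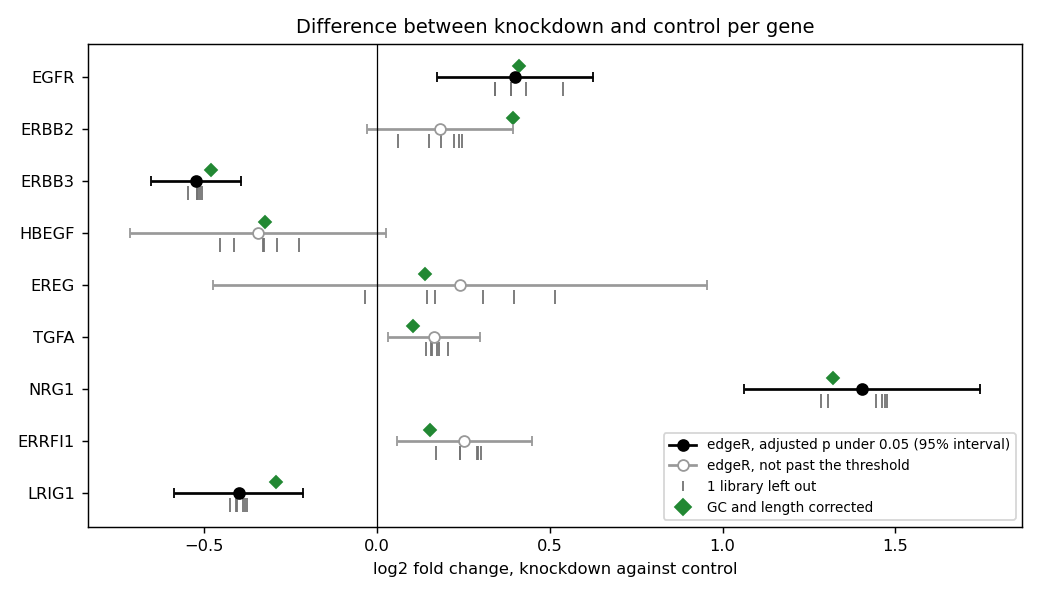
Log2 fold change of knockdown against control (horizontal axis) for the 9 tested genes, with the 95% interval of the edgeR fit, the fits with 1 library left out and the fit corrected for GC content and length. NRG1 (1.40) and EGFR (0.40) lie right of 0 and ERBB3 (-0.52) and LRIG1 (-0.40) left of it, and ERBB2 is the gene that the correction moves most, from 0.18 to 0.39.

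Compared per kilobase of principal transcript, which allows levels of different genes to be set side by side, TGFA led in controls with 134.6 ± 2.07 CPM per kilobase, followed by ERBB3 with 89.7 ± 0.22, ERBB2 with 30.2 ± 1.55 and ERRFI1 with 13.8 ± 0.560 (SD, n = 3 each). LRIG1 (5.82 to 6.09 CPM per kilobase) and EGFR (4.53 to 5.84) overlapped in controls. In the knockdown EGFR (6.30 to 6.70) lay above LRIG1 (4.39 to 4.64) in every library. HBEGF (2.17 to 2.99) lay above NRG1 (0.647 to 0.855) in controls, and in the knockdown they overlapped, at 1.90 to 2.24 and 1.90 to 2.36. EREG stayed between 0.201 and 0.468 CPM per kilobase. These levels rest on the length of 1 annotated transcript per gene, which need not be the form these cells make.

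The genes whose pattern over the 6 libraries lay nearest to the strongest riser and the strongest faller were found by the Euclidean distance of centred log2 CPM among 10118 genes. Nearest to NRG1 were BCAN, the gene of the brain proteoglycan brevican (distance 0.337, log2 fold change 1.16), SYNC, which encodes the intermediate filament protein syncoilin (0.383, log2 fold change 1.66), and CLCF1, a cytokine gene (0.385, log2 fold change 1.47). Nearest to ERBB3 were PABPC1L (0.0827, log2 fold change -0.54), the calcium-binding protein gene S100A1 (0.0857, log2 fold change -0.52) and the transcription factor gene TFAP2C (0.0858, log2 fold change -0.59). With 2 groups of 3 libraries, likeness mostly reflects a similar difference between the groups.

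The rest of the family was low. Of 7 other receptors and ligands, EPGN and NRG3 had 0 counts in every library, and 5 were tested. ERBB4, the fourth receptor and the other neuregulin receptor, had 6 to 30 counts. NRG2, a further neuregulin, had a mean of 8.45 ± 0.783 CPM in controls and 5.35 ± 1.40 in the knockdown and fell (log2 fold change -0.66, SE 0.19, adjusted p = 0.0267 in edgeR), opposite to NRG1. It no longer passed when control replicate 1 or 3, or knockdown replicate 2 or 3, was left out, so that 0 were lower. In edgeR 0 of the 5 were called higher, 0 of them had an unadjusted p under 0.05 in that direction, and DESeq2 and limma-voom also called 0 higher.

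Genes that control the release of ligands changed in both directions. Of 13 tested, 4 rose, 2 fell and 7 did not pass (46.2% called, beside 26.1% of all tested genes), and the median log2 fold change was -0.15, beside -0.0033 over all tested genes. TIMP3, an inhibitor of ADAM17, rose from 1720.4 ± 9.80 CPM in controls to 2571 ± 32.8 in the knockdown (0.58 on the log2 scale, SE 0.05, edgeR adjusted p = 1.97e-05), and the protease gene ADAM9 rose by 0.57 on the log2 scale. NRDC, whose product enhances shedding, and ADAM19, both named only to complete the count, rose by 0.25 and 0.34. FRMD8, which stabilises the iRhom partners of ADAM17 at the cell surface, fell from 167 ± 13.0 to 89.4 ± 12.3 CPM (-0.90), and ADAM12, a protease that can cut HB-EGF, fell by 0.59 on the log2 scale. Without control replicate 3, 2 were higher, and without knockdown replicate 1, 4 were lower.

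Genes of receptor turnover and of the signal relay mostly did not pass. Of 25 turnover genes 3 rose, 1 fell and 21 did not pass (16.0% called, beside 26.1% of all tested genes, median 0.12). UBASH3B, which slows the removal of activated EGFR from the surface, rose from 60.0 ± 0.912 to 86.4 ± 1.16 CPM (log2 fold change 0.53), the receptor phosphatase gene PTPRK rose by 0.40 and the adaptor gene CD2AP by 0.34 on the log2 scale, and PTPRJ, another phosphatase gene that acts on EGFR, fell by 0.21. PTPRJ did not pass, and 0 were lower, when any library other than knockdown replicate 1 was left out. The same held with all 6 libraries under upper quartile scaling, no filter on low counts or rows as deposited. Without knockdown replicate 1, 7 were higher and 3 lower. Of 31 relay genes 3 rose, 3 fell and 25 did not pass (19.4% called, median 0.08). GRB2, the adaptor that links receptors to RAS activation, rose from 122 ± 6.22 to 148 ± 5.36 CPM (log2 fold change 0.28), MAP2K1, the gene of MEK1, rose by 0.46 and the adaptor gene CRKL by 0.20 on the log2 scale. SHC1, another adaptor gene, fell from 402 ± 11.8 to 309.5 ± 19.9 CPM (-0.38), PLCG1, the gene of a phospholipase that receptors activate, by 0.34 and the kinase gene SRC by 0.38 on the log2 scale. CRKL and SRC complete the counts. Without knockdown replicate 1, 12 relay genes were higher and 6 lower, 1 was higher when control replicate 2 was left out, and 1 was lower when control replicate 1, control replicate 3 or knockdown replicate 2 was.

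Of the listed transcripts that respond to ERK, at the far end of the pathway, more fell than rose. Of 19 tested, 11 fell, 2 rose and 6 did not pass (68.4% called, beside 26.1% of all tested genes), with a median log2 fold change of -0.28. The 4 with the smallest p were SPRY4 (-1.88), a feedback inhibitor gene, the transcription factor gene EGR1 (-2.04), the ERK phosphatase gene DUSP6, which fell from 186 ± 6.96 to 112 ± 2.14 CPM (-0.73, SE 0.07, edgeR adjusted p = 1.76e-05), and DUSP4 (-0.50). The 2 that rose, named to complete the count, were SPRY1 (1.09) and DUSP5 (0.50). The 6 that did not pass, also named for that reason, were FOS (0.17), PHLDA1 (0.15), FOSL1 (0.11), SPRED3 (0.10), IER3 (-0.016) and CCND1 (-0.071). The list was drawn up with earlier results of these data known, so its direction is not independent evidence. With 1 library left out, 9 to 11 were lower and 2 or 3 higher.

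Other receptor tyrosine kinases differed in both directions. Of 36 listed, 24 were tested, 4 rose, 5 fell and 15 did not pass (37.5% called, beside 26.1% of all tested genes, median -0.14). MET, the receptor of hepatocyte growth factor, rose from 105 ± 2.70 CPM in controls to 182 ± 4.29 in the knockdown (0.79 on the log2 scale, SE 0.07, edgeR adjusted p = 8.68e-06), AXL, the receptor of GAS6, by 0.57, the VEGF receptor gene FLT1 by 0.48 and the ephrin receptor gene EPHB2 by 1.17 on the log2 scale. The 5 that fell, named to complete the count, were PDGFRB (-0.74), PDGFRA (-0.68), DDR2 (-0.48), PTK7 (-0.40) and TYRO3 (-0.30). Without knockdown replicate 1, 7 were higher and 10 lower.

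**Figure D4:**
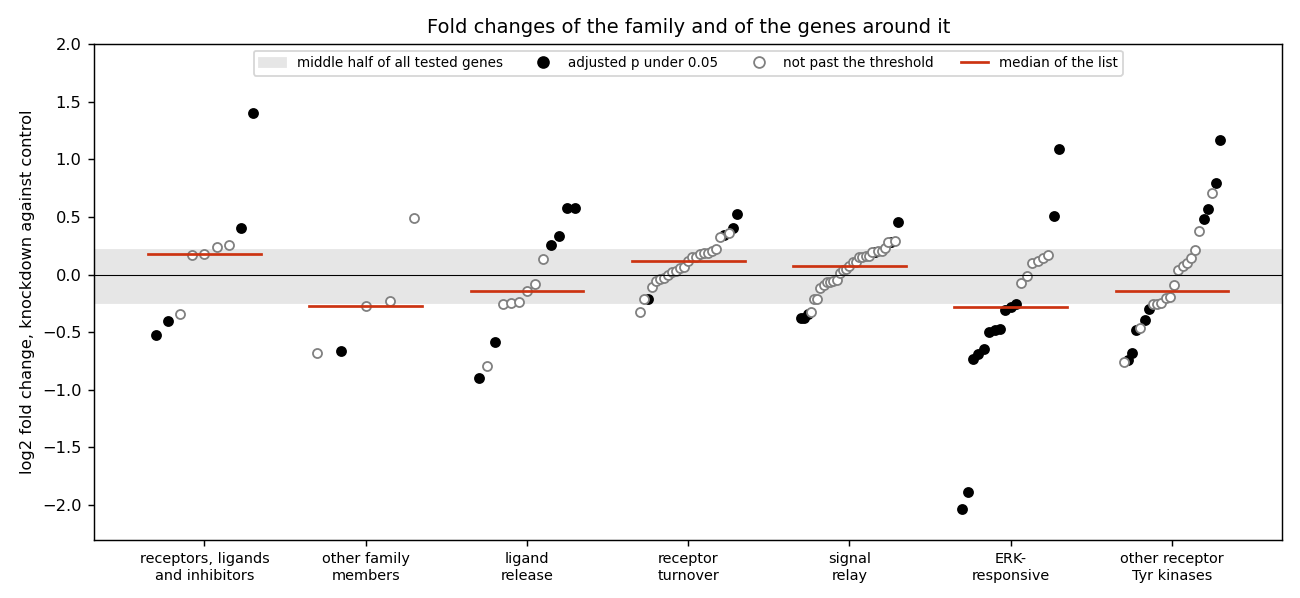
Log2 fold change of each tested gene (vertical axis), sorted within each list, for the 9 tested genes of the EGF receptor family and inhibitors and for 6 lists around them. Filled points passed the test, red lines are medians and the grey band, from -0.25 to 0.21, spans the quartiles of all tested genes. The ERK-responsive list has 11 of its 19 points filled below 0.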

How the data were processed

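RNA was sequenced from 3 control and 3 GDH1 knockdown (24 h) cultures of LN229, called biological replicates in the series design. The groups came from the genotype labels. The authors deposited 1 table of raw, whole-number counts over 28196 gene rows. The submitters' processing notes name the genome build GRCh38.p14. Aligner, counter and strandedness: not given in the sources used here.

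Counts of rows with the same symbol were summed (1634 symbols had several rows, and 4956 unnamed loci stayed as they were). Genes were filtered with filterByExpr and scaled by TMM, and knockdown was tested against control by edgeR 4.0.16 quasi-likelihood in R 4.3.3 (robust, two-sided, Benjamini-Hochberg over 15638 genes, threshold 0.05). The SE was derived from the fold change and F, and the prior count for log2 CPM was 2. Totals were 31201100 to 35619614 counts, which limits the precision of genes with few counts, and the biological coefficient of variation was 0.111. The procedure was tested on simulated data.

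The other settings were other scalings and filters, DESeq2 1.42.0, limma-voom (limma 3.58.1), a replicate block, leaving out each library, rows as deposited, a loess correction (span 0.5) for GC content and length of GENCODE 29 transcripts (GRCh38, 84.5% of tested genes), and an adjusted p of 0.01. Transcript lengths are those of the longest principal transcript, and gene positions are from RefSeq. The genes and lists were chosen with earlier results of these data known. All 10 genes and GLUD1 are named, and of each list the 4 called genes with the smallest p. Genes named to complete a count, and cell type markers given by value, were chosen after their values were seen. Some marker genes are not reported here.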

Additional observations from a re-analysis of the deposited data

How the results depend on the processing

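With 1 library left out, all tested genes gave 1161 to 2978 higher and 1053 to 3258 lower calls, the genes of the family 1 to 4 higher and 2 to 2 lower, the other family members 0 to 0 higher and 0 to 1 lower, ligand release 2 to 4 higher and 2 to 4 lower, turnover 2 to 7 higher and 0 to 3 lower, relay 1 to 12 higher and 1 to 6 lower, ERK-responsive transcripts 2 to 3 higher and 9 to 11 lower, and other receptor tyrosine kinases 4 to 7 higher and 4 to 10 lower. Calls over all genes were fewest without control replicate 1 or 3 or knockdown replicate 2. The log2 fold change of EREG was -0.037 to 0.51, with -0.037 and thus the other sign without control replicate 1. The cause was not tested.

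An adjusted p of 0.01 left 1013 higher and 977 lower genes, of the family 1 higher, of the other family members 0 lower, of turnover 0 lower, and of relay 1 higher and 1 lower, fewer by construction. The GC and length correction gave 4 family genes higher, 7 turnover genes higher and 2 lower, 7 relay genes higher and 5 lower, and 5 ERK-responsive transcripts higher. With the replicate block added it gave 4 family genes higher, 7 turnover genes higher and 3 lower, 8 relay genes higher and 5 lower, 5 ERK-responsive transcripts higher and 7 other receptor tyrosine kinases higher. The cause of these changes was not tested. The number of turnover genes lower was 0 with upper quartile scaling, no filter or rows as deposited, and 2 with DESeq2.

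The replicate number pairs nothing known: deviations of same-numbered libraries correlated at 0.0653, 0.0235 and -0.0151, and control replicate 2 correlated best with knockdown replicate 3 (0.0664). The replicate block gave 4 ligand release genes and 3 turnover genes lower, and it called ERRFI1 (adjusted p = 0.0344). ERBB3, NRG1 and LRIG1 kept their direction and call, and HBEGF its direction without a call, under all 16 other settings run for them. Of EREG, with 32 to 75 counts per library, the interval from -0.48 to 0.96 shows what depth and spread leave undetermined.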
